A study of Mus musculus with 4 samples.

Results

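The genes described here encode 6 insulin-like growth factor (IGF)-binding proteins, Igfbp2 to Igfbp7, the ligand IGF1 (Igf1), and 2 receptors, the IGF receptor (Igf1r) and the insulin receptor (Insr). They are 9 of the 32285 genes in the count table, taken by symbol, and were selected on measured values, with their counts in the 2 mouse strains known. Their levels and strain differences are therefore a description, with no p-value, and a count of edgeR calls among them is given once beside the share over all genes. The libraries were made from GS cells, wild-type cultured spermatogonia established from testes of mice aged 10 days. There were 2 libraries of the C57BL/6 strain (B6) and 2 of strain 129, with 20375086 to 25374801 counts each. The titles of both B6 libraries carry the tag F0 and those of the 129 libraries do not. Whatever the tag denotes cannot be told apart from strain. The labels do not state whether replicates of a strain are separate cultures or animals, so the spread, and each p-value below, may measure technical variation only. Levels are CPM (reads of a gene relative to the library's total, adjusted by TMM factors), given per library or as mean ± SD over n = 2 libraries. Log2 fold changes compare 129 with B6, positive where 129 was higher, and come with a standard error (SE) from the fit over all 16005 genes tested.

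IGF1 and IGF2 bind the IGF receptor, a tyrosine kinase that signals through insulin receptor substrates, PI3K and Akt. Secreted binding proteins hold the ligands away from the receptor or carry them, and proteases that cut the binding proteins set the ligands free. In the testis, signalling through the insulin and IGF receptors is known for its part in gonad formation and in the number of Sertoli cells.

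Igfbp3 was higher in B6 than in 129, whereas Igfbp4 and Igfbp5 were lower in B6 than in 129. Igfbp3, which in blood carries most IGF in a complex with the acid-labile subunit, stood at 79.4 and 94.7 CPM in B6 and at 7.97 and 7.49 CPM in 129. Both 129 libraries lay far below both B6 libraries, and the B6 mean of 87.0 ± 10.8 CPM was 11.3 times the 129 mean of 7.73 ± 0.339 CPM (log2 fold change -3.49, SE 0.26). Igfbp5, a binding protein that attaches to extracellular matrix, stood at 126.8 and 93.96 CPM in B6 and at 1139 and 591 CPM in 129. Here both 129 libraries were the high ones, with a 129 mean of 865 ± 388 CPM that was 7.84 times the B6 mean of 110.4 ± 23.2 CPM (log2 fold change 2.97, SE 0.35). Igfbp4, which restrains IGF action until it is cleaved, stood at 26.1 and 21.8 CPM in B6 and at 173.7 and 89.5 CPM in 129. The strains did not overlap for Igfbp4 either, and the 129 mean was 5.50 times the B6 mean (log2 fold change 2.46, SE 0.35). In bulk RNA such as this, fewer cells of a type and less RNA per cell cannot be told apart.

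**Figure D1:**
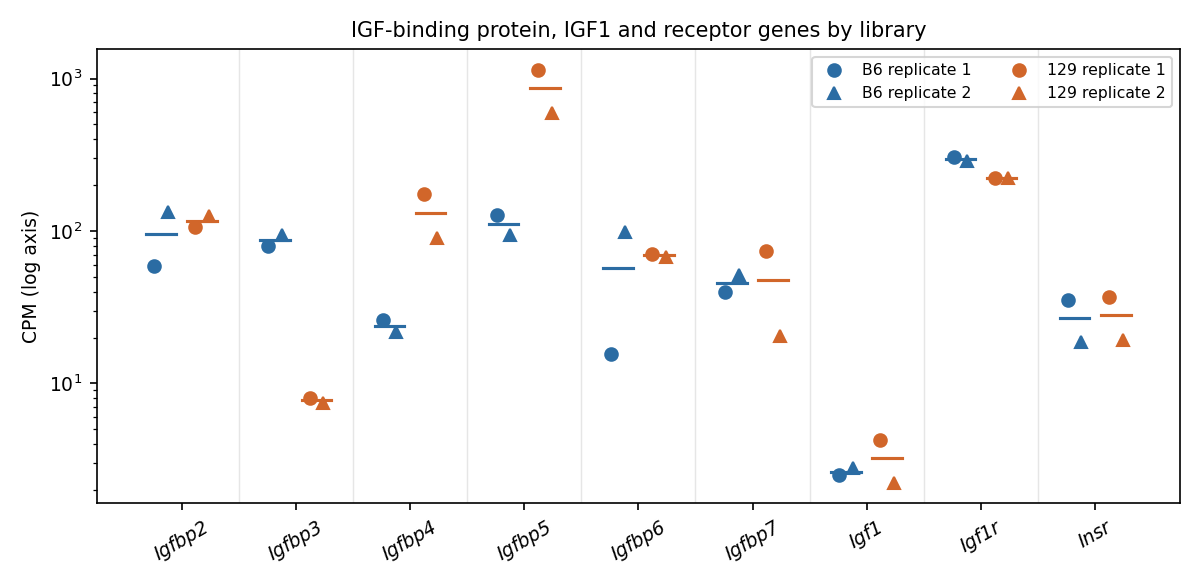
CPM (log axis) of the 9 genes in each library, with circles for replicate 1, triangles for replicate 2 and a bar at each strain mean. Igfbp3 is at 7.97 and 7.49 CPM in the 129 libraries against 79.4 and 94.7 CPM in B6, while Igfbp4 and Igfbp5 are higher in both 129 libraries than in either B6 library.

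The 129 libraries differed from each other for Igfbp4 and Igfbp5 and hardly for Igfbp3. Replicate 1 of 129 held 1.94 times the Igfbp4 CPM and 1.93 times the Igfbp5 CPM of replicate 2, against 1.06 times for Igfbp3. Without 129 replicate 1 the log2 fold changes were 1.91 for Igfbp4, 2.42 for Igfbp5 and -3.53 for Igfbp3. Of the 9 genes, edgeR's quasi-likelihood test called these 3, 2 higher and 1 lower in 129, where 2.86% of all genes tested were called. The libraries of the strains did not overlap for 4 of the 9, these 3 and Igf1r, as for 60.1% of all genes tested. Since the choice of genes used the same contrast, nothing is read from these counts.

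**Figure D2:**
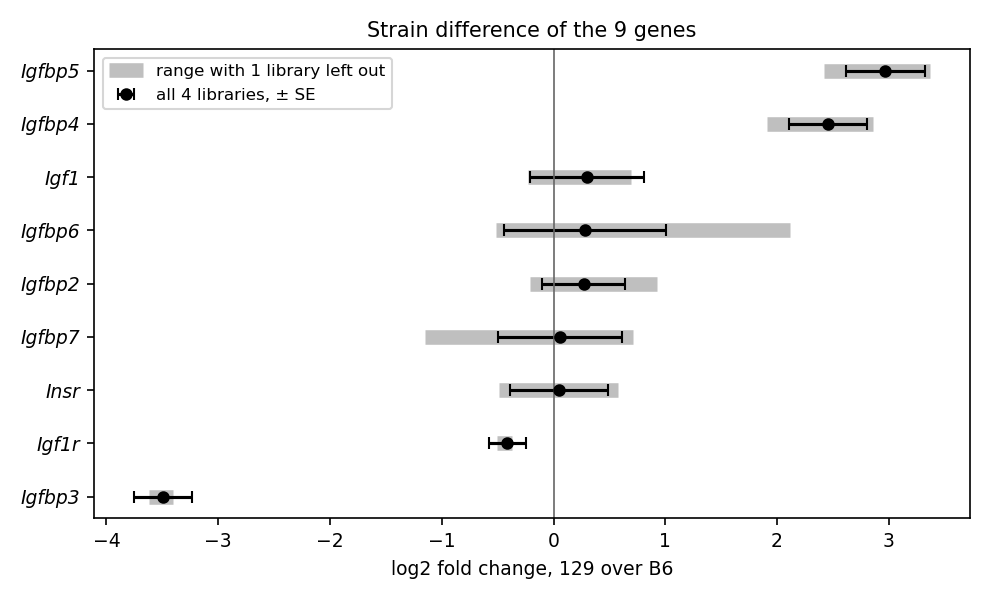
Log2 fold change of each gene, 129 over B6. Points and whiskers are the estimate from all 4 libraries ± SE, and grey bars span the estimates with each library left out in turn: they stay between -3.62 and -3.40 for Igfbp3, 1.91 and 2.86 for Igfbp4, and 2.42 and 3.37 for Igfbp5, and cross 0 for Igf1, Igfbp2, Igfbp6, Igfbp7 and Insr.

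The proximal promoters of these 3 genes are shown because the genes had the largest strain differences of the 9, 2 of them in the same direction. Each line gives the 250 bases before the RefSeq start (build GRCm38.p6), 5′ to 3′ on the strand of the gene, with each match to TATNNA on that strand in capitals. The Igfbp3 window is chr11:7213924-7214173 on the minus strand, the Igfbp4 window is chr11:99040994-99041243 on the plus strand, and the Igfbp5 window is chr1:72874866-72875115 on the minus strand.
Igfbp3: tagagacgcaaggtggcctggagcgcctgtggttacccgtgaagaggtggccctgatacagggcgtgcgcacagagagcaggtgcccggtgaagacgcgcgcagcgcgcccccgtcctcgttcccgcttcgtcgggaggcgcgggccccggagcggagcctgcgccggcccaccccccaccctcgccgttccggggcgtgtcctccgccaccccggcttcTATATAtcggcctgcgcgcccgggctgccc
Igfbp4: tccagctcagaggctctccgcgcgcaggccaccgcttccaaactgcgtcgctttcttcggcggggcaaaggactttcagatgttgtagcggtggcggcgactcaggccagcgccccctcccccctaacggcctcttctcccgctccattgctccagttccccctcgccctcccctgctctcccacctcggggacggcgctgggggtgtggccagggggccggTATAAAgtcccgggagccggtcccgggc
Igfbp5: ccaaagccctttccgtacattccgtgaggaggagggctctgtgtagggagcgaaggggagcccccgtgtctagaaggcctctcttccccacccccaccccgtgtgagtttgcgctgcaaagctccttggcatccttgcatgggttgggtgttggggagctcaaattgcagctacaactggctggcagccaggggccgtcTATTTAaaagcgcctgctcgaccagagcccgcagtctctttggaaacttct
The capitals begin 30 bases before the RefSeq start in Igfbp3, 28 in Igfbp4 and 51 in Igfbp5. Igfbp5 thus has no match 20 to 40 bases before its RefSeq start. From the GENCODE M21 start the distances are 30, 28 and 32 bases. TATNNA begins 20 to 40 bases before the RefSeq start on the strand of the gene in 6.37% of the 32851 windows of the same kind. It lies anywhere in the window on either strand in 56.2%. These shares were not counted from GENCODE starts. These letters were chosen after the windows were read. The GC box GGGCGG is in none of the 3 windows and in 32.7% of all windows (either strand), and it is in windows of Igfbp2, Igfbp7 and Igf1r. Igfbp6, whose strains overlapped, also has TATNNA 35 bases before its RefSeq start. The FoxO motif TGTTTAC is in no window of the 8 genes that had one in the table and in 3.17% of all windows, again on either strand. The windows hold 73.2%, 69.2% and 58.8% G and C. No value here ties a match to the strain difference.

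Igfbp3 and Igfbp5 each lie beside another family member, of which Igfbp2 overlapped between the strains and Igfbp1 had too few counts to compare. In GRCm38, Igfbp5 (chromosome 1, 72857932 to 72874884, minus strand) ends 5.46 kb from the end of Igfbp2 (72824503 to 72852474, plus strand), with no other annotated gene between them. Igfbp2, whose product binds IGF2 and can bind integrins, stood at 59.1 and 132.8 CPM in B6 and at 106.2 and 124.9 CPM in 129. The strains overlapped, and the log2 fold change of 0.27 (SE 0.37) was -0.21 without B6 replicate 1. Igfbp3 (chromosome 11, 7206086 to 7213923, minus strand) ends 3.54 kb from the end of Igfbp1 (7197782 to 7202546, plus strand). Igfbp1, a liver binding protein, had 1 count in each B6 library and 1 and 0 counts in the 129 libraries. No RNA of it above the floor of 3 counts was seen where Igfbp3 had 1977 and 1912 counts. Igfbp4 lies apart from these on chromosome 11 (99041244 to 99054392, plus strand).

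The remaining binding proteins varied more within a strain than between the strains. Igfbp6 (chromosome 15, 102144362 to 102149511), whose product prefers IGF2, stood at 15.5 and 98.3 CPM in B6 and at 70.4 and 67.8 CPM in 129. The B6 libraries bracketed the 129 libraries, 6.34 times apart from each other, and the log2 fold change of 0.29 (SE 0.72) was -0.51 without B6 replicate 1 and 2.11 without B6 replicate 2. Chromosome 15 as a whole lay higher in 129, with a median log2 fold change of 0.46 over its 427 genes above 10 CPM on average, against -0.05 for the other autosomes, and its part in the Igfbp6 values was not tested. Igfbp7 (chromosome 5, 77349240 to 77408041), a related secreted protein with low affinity for IGFs, stood at 39.5 and 51.7 CPM in B6 and at 74.4 and 20.4 CPM in 129. Here the 129 libraries bracketed those of B6, at 3.64 times each other, and the log2 fold change of 0.06 (SE 0.56) was -1.15 without 129 replicate 1. Of the Igfbp7 exons, 7.03% of the bases overlap Polr2b on the opposite strand, a gene with 40070 counts in all. Whether counting used strand is not stated, so reads of this stretch may belong to either gene.

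Per length of exon, the leading binding protein gene differed between B6 and 129. RPKM, the CPM per kilobase of merged exons, allow levels of different genes to be compared. In B6, Igfbp2 (51.96 ± 28.2 RPKM), Igfbp6 (51.2 ± 52.6) and Igfbp7 (37.7 ± 7.16) could not be ordered, since their libraries overlapped. Igfbp3 followed at 27.8 ± 3.44 RPKM, above B6 replicate 1 of Igfbp6, then Igfbp5 at 18.4 ± 3.86 and Igfbp4 at 5.42 ± 0.687 RPKM, each with both libraries below those of the binding protein named just before it (for Igfbp3, of Igfbp7). In 129, Igfbp5 came first at 144 ± 64.6 RPKM, with both libraries above those of any other of the 9 genes. Igfbp2 (62.6 ± 7.16), Igfbp6 (62.1 ± 1.64), Igfbp7 (39.2 ± 31.6) and Igfbp4 (29.8 ± 13.5) followed, with overlap between neighbours, and Igfbp3 was last of the family at 2.47 ± 0.108 RPKM. Among 15999 tested genes ranked by mean RPKM, Igfbp5 moved from place 3335 in B6 to 141 in 129, Igfbp4 from 7722 to 1875, and Igfbp3 from 2118 to 10477.

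The ratio of Igfbp5 to Igfbp3 within a library does not depend on the scaling between libraries. Per length it was 0.832 and 0.517 in B6 and 74.5 and 41.1 in 129, so Igfbp3 exceeded Igfbp5 in both B6 libraries and Igfbp5 exceeded Igfbp3 in both 129 libraries. The ratio of Igfbp5 to Igfbp4 moved much less, from 3.58 and 3.17 in B6 to 4.82 and 4.85 in 129. As a share of the summed RPKM of the 6 binding proteins, Igfbp5 made up 16.1% and 6.16% in B6 and 45.8% and 36.9% in 129. Igfbp3 made up 19.4% and 11.9% in B6 and 0.615% and 0.898% in 129. The sum itself was 131 and 254 RPKM in B6 and 414 and 267 RPKM in 129, with B6 replicate 2 close to 129 replicate 2. These shares rest on gene models, and their counting error was not computed.

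**Figure D3:**
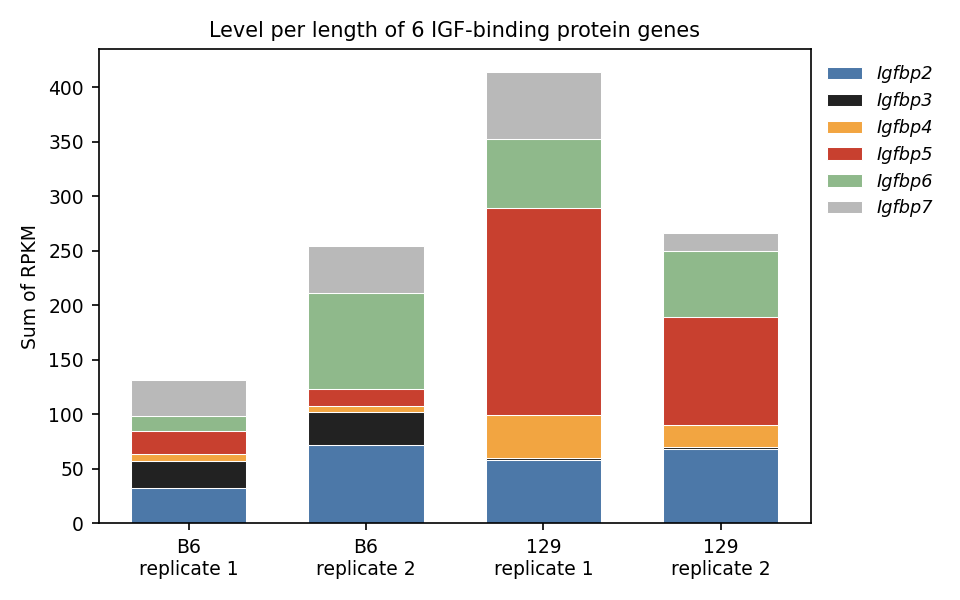
Stacked RPKM of the 6 binding protein genes in each library. Igfbp5 takes 45.8% and 36.9% of the bar in the 129 libraries against 16.1% and 6.16% in B6, and the Igfbp3 band, 19.4% and 11.9% in B6, is under 1% in 129.

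Per length, Igf1r was higher than Insr in every library, and Igf1 was the lowest of the 9 genes in both strain means, at 0.266 ± 0.0201 RPKM in B6 and 0.327 ± 0.144 RPKM in 129. Igf1r (chromosome 7, 67952827 to 68233668), the receptor for both IGFs, stood at 307 and 286 CPM in B6 and at 222.8 and 223.2 CPM in 129. Both 129 libraries were lower, by a small amount (log2 fold change -0.41, SE 0.17). Insr (chromosome 8, 3122061 to 3279617), which binds insulin and, in a short isoform, IGF2, stood at 35.4 and 18.7 CPM in B6 and at 36.95 and 19.3 CPM in 129. Its strain means were nearly equal, while replicate 1 held 1.89 times the CPM of replicate 2 in B6 and 1.92 times in 129. Per length, Igf1r exceeded Insr 7.11 and 12.5 times in the B6 libraries and 4.94 and 9.49 times in the 129 libraries. Igf1 (chromosome 10, 87858265 to 87937042), the ligand made by many stromal cells, had 62 and 56 counts in B6 and 88 and 47 in 129, or 2.23 to 4.25 CPM. The strains overlapped for Igf1, and its log2 fold change of 0.30 (SE 0.51) was -0.23 without 129 replicate 1.

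Igf2 was the most abundant of the 4 ligand genes Igf1, Igf2, Ins1 and Ins2 in each library. It stood at 82.2 and 170.3 CPM in B6 and at 244.5 and 180.3 CPM in 129, and did not pass the test (edgeR adjusted p = 0.22, log2 fold change 0.75, SE 0.35). Per length it exceeded Igf1 57.1 and 106.3 times in B6 and 99.5 and 140 times in 129. Reads of Igf2 are uncertain, because in GENCODE M21 62.8% of its exon bases also belong to Gm49394 on the same strand, a gene not analysed here, and 1.71% to Igf2os on the opposite strand. Ins2, an insulin gene, had no count in any library, which allows up to 0.120 to 0.148 CPM per library (3 counts, counting error only), and Ins1 had 1 count in all. Igf2r, which carries IGF2 to lysosomes, stood at 447 and 343 CPM in B6 and at 261 and 320 CPM in 129 (edgeR adjusted p = 0.22, log2 fold change -0.44, SE 0.21). Insrr, an orphan receptor of the insulin receptor family, lay between 0.198 and 0.725 CPM, and Igfals, the acid-labile subunit that joins IGFBP-3 in blood, had 3 to 7 counts per library. Igfbpl1, a gene related to the binding proteins, stood at 14.8 and 21.3 CPM in B6 and at 16.3 and 25.6 CPM in 129, with overlap.

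The genes of the 2 pappalysins, metalloproteinases that cut IGF-binding proteins, went in opposite directions. The tests that follow are on genes outside the 9, from a list of 52 further IGF pathway genes written with earlier results of these data known. Pappa, whose product cuts binding proteins that include IGFBP-4, stood at 19.7 and 15.99 CPM in B6 and at 2.17 and 1.47 CPM in 129. It fell in 129 (edgeR adjusted p = 0.032, log2 fold change -3.29, SE 0.45), with both 129 libraries below both B6 libraries. Pappa2, whose product cuts IGFBP-3 and IGFBP-5, stood at 0.281 and 0.693 CPM in B6, or 7 and 14 counts, and at 12.9 and 14.98 CPM in 129. It rose (edgeR adjusted p = 0.029, log2 fold change 4.88, SE 0.58), and its 129 replicates were closer together than those of Igfbp4 and Igfbp5. The adjusted p ranged over the alternatives from above to below the threshold: without B6 replicate 1, B6 replicate 2 or 129 replicate 1 it was 0.15, 0.093 and 0.14 for Pappa and 0.15, 0.092 and 0.12 for Pappa2. The log2 fold changes in these fits were -3.14, -3.48 and -3.59 for Pappa and 4.31, 5.56 and 4.99 for Pappa2, and edgeR called 0, 1 and 13 genes in all, with 3251, 4093 and 2203 at an unadjusted p under 0.05.

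Stc1 and Htra1, genes of a pappalysin inhibitor and of a further protease, gave large differences that did not pass, while Stc2 overlapped between the strains. Stc1, a stanniocalcin that inhibits pappalysins, stood at 7.75 and 2.87 CPM in B6 and at 81.3 and 21.5 CPM in 129. Both 129 libraries were the higher ones, 3.79 times apart from each other (edgeR adjusted p = 0.063, log2 fold change 3.25, SE 0.75). The log2 fold change of Stc1 was 4.15 without B6 replicate 1, 2.68 without B6 replicate 2, 1.997 without 129 replicate 1 and 3.92 without 129 replicate 2, and the last of these passed (edgeR adjusted p = 0.024). Stc2, the other stanniocalcin, stood at 8.52 and 1.04 CPM in B6 and at 0.918 and 2.13 CPM in 129, with overlap. Htra1, a secreted serine protease that degrades IGFBP-5, stood at 18.8 and 8.02 CPM in B6 and at 1.84 and 1.23 CPM in 129 (edgeR adjusted p = 0.051, log2 fold change -3.13, SE 0.61). Of the 5 genes in this group edgeR called 2 and limma-voom 2, and DESeq2 called 4, Stc1 and Htra1 included. Over all genes tested the shares called were 2.86% with edgeR, 1.64% with limma-voom and 14.8% with DESeq2.

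**Figure D4:**
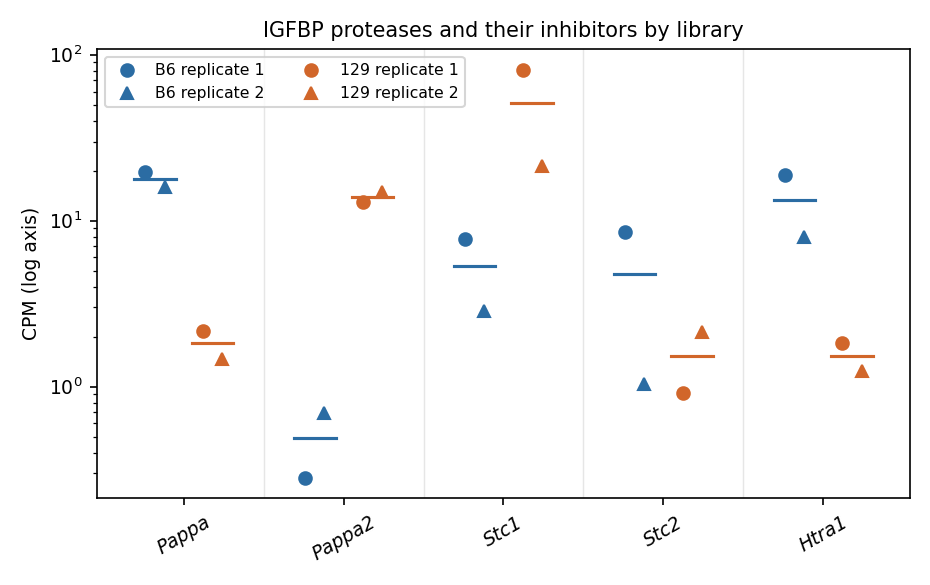
CPM (log axis) of the proteases that cut IGF-binding proteins and of their inhibitors in each library, with symbols as circles for replicate 1 and triangles for replicate 2, and bars at strain means. Pappa and Htra1 are lower and Pappa2 and Stc1 higher in both 129 libraries, while Stc2 overlaps.

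Most genes of the whole pathway list, proteases and ligands included, did not pass the test. Of its 48 tested genes, 2 rose, 1 fell and 45 did not pass, with a median log2 fold change of -0.14. Over all genes tested 1.84% were called higher and 1.02% lower, with a median of 0.02. Beside Pappa and Pappa2, the third call was Inppl1, the only one among the adaptor, PI3K and Akt, mTOR and FoxO genes. Inppl1 encodes the lipid phosphatase SHIP2 that acts on the product of PI3K. It stood at 130.1 and 120.3 CPM in B6 and at 269.9 and 267 CPM in 129 (edgeR adjusted p = 0.036, log2 fold change 1.10, SE 0.17). Its call ended with any library left out (adjusted p = 0.057 to 0.18), although the log2 fold change stayed between 1.003 and 1.15. Gm10602 on the opposite strand, with 159 counts in all, overlaps 18.8% of its exon bases. The other 12 genes of the PI3K and Akt group did not pass, with the kinase gene Akt1 at a log2 fold change of 0.40 (SE 0.21).

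FoxO transcription factors, which Akt keeps out of the nucleus, were split. Foxo1 stood at 292 and 281 CPM in B6 and at 128 and 174 CPM in 129 (edgeR adjusted p = 0.058, log2 fold change -0.92, SE 0.21). Foxo3 stood at 315.4 and 315.3 CPM in B6 and at 175.9 and 191 CPM in 129 (edgeR adjusted p = 0.055, log2 fold change -0.78, SE 0.17). Both were lower in both 129 libraries without passing, while Foxo4 and Foxo6 overlapped between the strains. Of the 4, edgeR called 0 and limma-voom 0, and DESeq2, with its share of 14.8% over all genes, called Foxo1 and Foxo3. In edgeR 2 of the 4 had an unadjusted p under 0.05. So had 4492 of all 16005 genes tested, a common result that the counts at this threshold below must be set against. Of the 10 adaptor genes edgeR called 0, with 1 at an unadjusted p under 0.05, DESeq2 called 1 and limma-voom 0. That gene was Grb10, an imprinted adaptor that restrains both receptors, at 54.4 and 19.6 CPM in B6 and 7.54 and 13.2 CPM in 129 (edgeR adjusted p = 0.097, log2 fold change -1.84, SE 0.55). Its log2 fold change was -0.92 without B6 replicate 1, -2.43 without B6 replicate 2 and -1.48 and -2.30 without 129 replicates 1 and 2. The receptor substrates Irs1 (log2 fold change 1.20, SE 0.76) and Irs2 (-0.67, SE 0.33) did not pass. Of the 9 mTOR genes edgeR called 0, with 2 at an unadjusted p under 0.05, and DESeq2 and limma-voom called 0. Igf2bp1, Igf2bp2 and Igf2bp3 bind Igf2 and other mRNAs and are no binding proteins of the growth factor. Their log2 fold changes were -0.13 (SE 0.20), 0.62 (SE 0.35) and 0.68 (SE 0.34), and no tool called them (edgeR, DESeq2 or limma-voom, 0 at an unadjusted p under 0.05 in edgeR). Malsu1 on the opposite strand overlaps 18.7% of the Igf2bp3 exon bases.

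**Figure D5:**
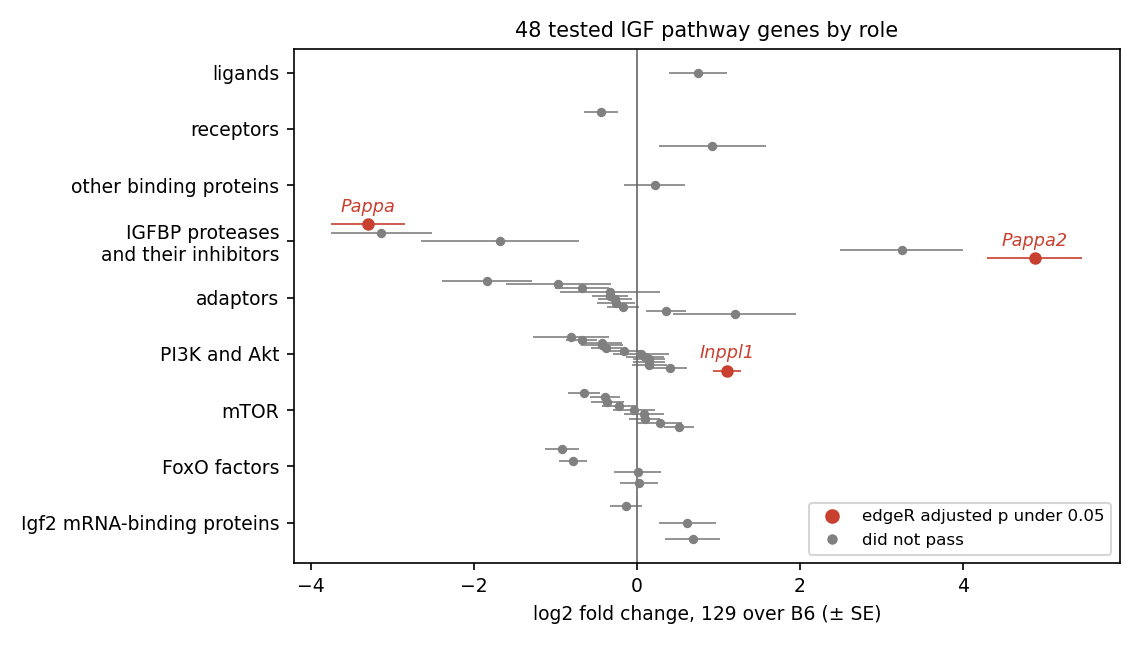
Log2 fold change, 129 over B6, ± SE for the 48 tested genes of the IGF pathway list, by role. Red points passed edgeR's test: Pappa fell, Pappa2 and Inppl1 rose, and the 45 grey points did not pass.

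Genes with the most similar profile over the 4 libraries were sought for each of the 9. Likeness was the Euclidean distance between log2(CPM + 0.5) values, each gene centred on its mean, over 10069 other genes (10070 for Igf1) that averaged 10 CPM or more. The nearest to Igfbp5 was Ece2, an endothelin-converting enzyme gene (4.14 and 2.57 CPM in B6, 38.0 and 20.4 CPM in 129, distance 0.12), followed by Fzd1, a Wnt receptor gene (0.27). The nearest to Igfbp4 were Ano8 (0.31) and H6pd (0.33), and to Igfbp3 they were Dnah11 (0.41) and Abcc8 (0.56). Abcc8, the sulphonylurea receptor gene, stood at 53.4 and 39.7 CPM in B6 and at 3.09 and 3.79 CPM in 129. Igfbp2 was nearest to Phgdh (0.06) and Zdhhc14 (0.14), Igfbp6 to Matn4 (0.30) and Fbxo6 (0.34), and Igfbp7 to Sgk1 (0.20) and Prss23 (0.24). Igf1r was nearest to Pias1 (0.02) and Vav3 (0.03), Insr to Alcam (0.12) and Asph (0.15), and Igf1 to Pigk (0.02) and Prnp (0.05).

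Markers of the labelled cell type were present in every library and differed between the strains in both directions. All 10 spermatogonial markers stood at 10.4 CPM or more in each library, with sums of 3596 and 3803 CPM in B6 and 2726 and 3532 CPM in 129. The strains did not overlap for 8 of the 10, 2 higher and 6 lower in 129, and edgeR called Etv5 higher (69.8 to 218 CPM) and Uchl1 lower (790 to 344 CPM). Over all genes tested the strains did not overlap for 60.1%, 4957 genes higher and 4669 lower in 129, and calls were 1.84% higher and 1.02% lower. Ret ranged from 147 CPM in B6 replicate 1 to 644 CPM in 129 replicate 2. The 10 fibroblast markers summed to 4173 and 2664 CPM in B6 and to 2860 and 1035 CPM in 129, a sum made up mostly of Col1a1, Col1a2, Col3a1 and Fbln2. Their median log2 fold change was -0.96, with 6 lower and 3 higher in both 129 libraries, beside the same 60.1% over all genes. The higher ones were Dcn (134 to 385 CPM), Pdgfrb (19.5 to 74.4 CPM) and Pdgfra (40.7 to 149 CPM), the only one of the 10 that edgeR called, so these 3 lay in the direction of Igfbp4 and Igfbp5 and the 6 in that of Igfbp3. Between the 129 libraries the sum was 2.76 times higher in replicate 1, Pdgfra stood at 196 against 102.8 CPM, and Thy1 was lower in replicate 1 (6.91 against 14.5 CPM). Of the 9 genes, Igfbp4, Igfbp5, Igfbp7, Igf1 and Insr stood in 129 replicate 1 at 1.91 to 3.64 times replicate 2. Igfbp3, Igfbp6 and Igf1r were nearly equal (1.06, 1.04 and 0.998 times), and Igfbp2 was lower (0.850 times). Outside the 9, Stc1, Irs1 and Irs2 were higher in 129 replicate 1 (3.79, 4.17 and 1.89 times) and Grb10 and Stc2 lower (0.570 and 0.430 times). The 6 endothelial markers summed to 14.4 and 20.2 CPM in B6 and to 196 and 75.3 CPM in 129, most of it in 129 from Cdh5 (87.9 and 27.0 CPM) and Eng (95.9 and 32.6 CPM), the 2 of 5 tested that edgeR called higher. Kdr was higher in both 129 libraries without passing, at 1.81 and 1.73 CPM in B6 and 3.96 and 3.70 CPM in 129 (log2 fold change 1.11, SE 0.46). Tek (3.10 CPM in B6 and 3.11 CPM in 129) and Pecam1 (log2 fold change 0.31) overlapped between the strains, and Emcn was under 1 CPM in every library. The part of fibroblasts, endothelial cells or Sertoli cells in the differences of Igfbp3, Igfbp4 and Igfbp5 was not tested. The 6 peritubular muscle markers summed to 81.3 and 23.6 CPM in B6 and 93.2 and 40.3 CPM in 129, and edgeR called Des higher. Tagln went the other way without passing, at 28.8 and 6.24 CPM in B6 and 3.62 and 2.28 CPM in 129. Acta2, Myh11, Cnn1 and Actg2 overlapped between the strains. Of the 8 Sertoli markers, 5 (Amh, Cldn11, Fshr, Inha and Rhox8) were under 1 CPM in every library. The list summed to 16.2 and 13.6 CPM in B6 and to 27.3 and 38.1 CPM in 129. All 7 Sertoli markers tested had a log2 fold change above 0, and edgeR called 0. The strains did not overlap for 5 of the 7, each higher in 129, beside 60.1% over all genes tested. Of the 6 Leydig markers, 5 were under 1 CPM in every library, and the 6 macrophage markers summed to 18.3 to 49.7 CPM with Ptprc under 1 CPM.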

How the data were processed

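RNA of 4 mouse GS cell libraries, 2 per strain as their titles state, was sequenced. The authors deposited raw counts per gene. The submitters' processing notes list the build mm10, HTSeq 0.13.5, HISAT2 2.2.1, bcl2fastq 2.20, DESeq2 1.30.1 and cutadapt 3.4, while settings, annotation release and strand mode are not given. The build is of the B6 strain, so 129 reads over strain variants may be lost, which was not tested.

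Strains were compared with the robust quasi-likelihood test of edgeR 4.0.16 (R 4.3.3) after filterByExpr, which kept 16005 genes, with TMM factors and strain as the only term. Calls had a Benjamini-Hochberg adjusted p under 0.05 over these genes. SEs were computed by dividing the log2 fold change by the root of F. Lengths and positions are from GENCODE M21 (GRCm38), promoters from RefSeq (GRCm38.p6). Libraries of a strain were not duplicates (chi-square per gene 43.1 in B6 and 54.6 in 129). The members and lists were chosen with earlier results of these data known. Named are the 9 members, called pathway genes, pathway genes fixed by name (1 is not reported here), and the 2 nearest genes per member. Gm49394, Gm10602, Malsu1, Igf2os, Polr2b, Ins1, Foxo4, Foxo6 and markers are named for context. Alternatives used limma 3.58.1 and DESeq2 1.42.0, other factors, no filter, a replicate block and each library left out. The fit was tested on simulated data.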

Additional observations from a re-analysis of the deposited data

How the results depend on the processing

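The directions of Igfbp3, Igfbp4, Igfbp5 and Igf1r held in all 11 alternatives. The log2 fold change of Igfbp7 turned to -0.21 with limma-voom and -0.20 with the replicate block. With a library left out, the values that turned ranged from -1.15 to 0.71 for Igfbp7, -0.21 to 0.92 for Igfbp2, -0.51 to 2.11 for Igfbp6, -0.49 to 0.58 for Insr and -0.23 to 0.70 for Igf1. Beyond the 9 genes they ranged from -0.14 to 0.51 for Igfbpl1, -2.52 to 0.55 for Stc2, -0.32 to 0.030 for Igf2bp1 and -0.16 to 2.07 for Irs1. Over all genes 457 were called, against 1021 with upper-quartile factors, 260 without a filter, 2519 with DESeq2, 263 with limma-voom, 844 with the replicate block and 0 to 827 with a library left out. Of the IGF pathway genes 3 were called, against 5 with upper-quartile factors, 8 with DESeq2, 5 with the replicate block and 0 to 3 with a library left out. Of the 9 genes 3 were called, and 0 to 3 with a library left out. Limma-voom called 2 of the 9, Igfbp3 and Igfbp5, and did not call Igfbp4. The causes of these changes in the calls were not tested. The legacy form of the edgeR test was added after the data were seen. Replicate numbers are shared between the strains, but nothing in the labels ties them to an animal or batch, and same-numbered libraries did not deviate together (r = -0.019 over 16005 genes). With the replicate block the call count rose to 844, and Stc1 and Htra1 passed (adjusted p = 0.015 and 0.029). With the longest transcript in place of merged exons, 7 of the 9 genes kept their place by mean RPKM. By that length Igfbp5 still led the binding protein genes in both 129 libraries. In 129 replicate 2 it was close to Igfbp2, at 98.4 against 95.6 RPKM, and in replicate 1 it stood at 189.7 against 81.3 RPKM. Igf1, at 47 to 88 counts, and Pappa2 in B6, at 7 and 14, are limited by depth.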
